A study of Apis mellifera with 18 samples.

Results

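Dinotefuran-fed worker brains of the honey bee, Apis mellifera, were compared between the 10th and the 5th day after emergence. The comparison takes 6 of the 18 RNA-seq libraries of the series, 3 of the group DT_10d and 3 of the group DT_5d, chosen by the treatment and age in their labels. The design asks how the brain transcriptome of continuously exposed young adults shifted over the second 5 d of feeding.

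The bees of both groups were newly emerged workers from sealed brood frames of healthy colonies. They were kept in cages in darkness at constant temperature and fed 50% sucrose solution carrying 0.01 mg/L dinotefuran, renewed daily in a 2 mL portion. The controls, C_5d and C_10d, were handled in the same way on sucrose solution without dinotefuran and also had 3 libraries each. The strain was not given. Each library was made from 15 brains pooled before RNA extraction, so the spread between bees was not measured. Nothing in the labels says whether the 3 libraries of a group came from separate cages or colonies, and the p-values below therefore measure only the spread between these samples.

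Dinotefuran is a neonicotinoid, an insecticide that binds the nicotinic acetylcholine receptors through which acetylcholine excites insect neurons. Over the first days of adult life a worker hardens its cuticle, matures its brain and, as a nurse, fills the paired hypopharyngeal glands of the head, which secrete most of the protein of royal jelly. These glands, together with fat body, blood cells and muscle, lie beside the brain within the head capsule. In RNA from whole pooled brains, fewer cells of a type and less RNA per cell cannot be told apart.

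The files give 1 value in FPKM (fragments mapped to a transcript, divided by its length and by all mapped fragments) for each of 9939 genes. FPKM is a share of a library's reads, and a few very abundant transcripts took unequal shares of the 2 ages. The 10 most abundant genes held 59.4% to 67.2% of the summed FPKM in DT_5d and 37.4% to 42.1% in DT_10d, against 36.8% to 54.5% in C_5d and 44.9% to 57.3% in C_10d. Each library was therefore divided by its median ratio to the geometric mean over the 9119 genes above 0 in all 18 libraries. These factors were 0.550 to 0.826 in DT_5d and 1.46 to 1.54 in DT_10d, which do not overlap, so that the whole scale of the 2 groups differs and the scaling bears on every value below. After scaling, libraries of a group correlated at r = 0.976 to 0.978 in DT_5d and 0.984 to 0.986 in DT_10d across genes, which are not independent replicates. The median SD over 3 libraries was 0.215 on the log2 scale in DT_5d and 0.129 in DT_10d. The study states the reads of each library, which are not used here, and the reads behind the value of a single gene could not be recovered.

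More genes fell than rose between 5 d and 10 d. Of 9352 genes tested with limma on log2(scaled FPKM + 0.1), 98 were called higher at 10 d, or 1.05%, and 278 lower, or 2.97%, together 4.02%. A call needed a Benjamini-Hochberg adjusted p below 0.05 and a log2 change beyond 1. A change on this scale understates that of genes near 0. The median over all genes tested was -0.00458, with 4641 genes above 0 and 4711 below. Without scaling, the same FPKM values gave 4685 genes called higher and 70 lower, with the median of all genes at 1.01, and all 98 increases but only 64 of the 278 decreases were called in both. Quantile normalization gave 138 higher and 220 lower, sharing 94 and 200 genes with the scaled comparison. Every decrease below is therefore a decrease relative to the median gene.

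The decreases were larger and lay among more abundant transcripts than the increases. The median log2 change was -1.55 over the 278 decreases and 1.21 over the 98 increases. A log2 change beyond 3 was reached by 25 decreases and by 3 increases, LOC726150, LOC406142 and Apid1. The higher of the 2 group means had a median of 21.3 scaled FPKM among decreases and 2.35 among increases, and it exceeded 100 for 77 and for 3 genes. The third of these, besides LOC406142 and Apid1, was LOC550686, named after its values were seen. All libraries of one age lay on one side of all libraries of the other for 274 of the 278 decreases and 97 of the 98 increases, and this was so for 43.4% of all genes tested (22.7% lower, 20.7% higher). Many calls were lost with 1 library less: 104 of the decreases and 22 of the increases were called whichever library was left out. Such a fit rests on fewer libraries, so a lost call does not by itself show dependence on the library left out. Leaving out 1 library gave 130 to 307 decreases and 38 to 175 increases, with the smallest counts of both directions, 130 and 38, without DT_5d replicate 1.

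**Figure D1:**
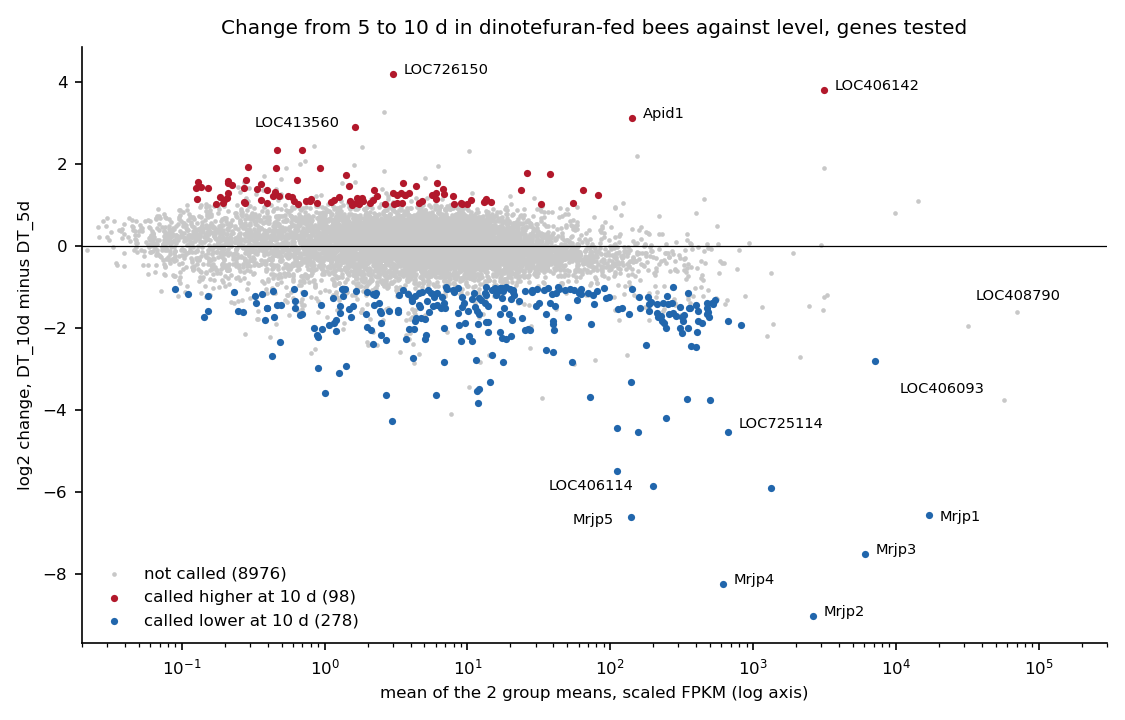
Change of each of the 9352 tested genes between DT_5d and DT_10d (vertical axis, log2 units) against its mean level over both groups (horizontal axis, scaled FPKM, log axis). Red points are the 98 genes called higher, blue points the 278 called lower and grey points the 8976 others. Blue points reach -9.04 and include genes as abundant as Mrjp1, whereas red points lie mostly at low levels and reach 4.19.

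Genes with a defining role in the nervous system were present in every library. All 4 neuron markers lay above 0 with a median of 0.35 against -0.00458 over all genes, and none passed the limit of the call. Their summed level was 41.7 to 46.5 scaled FPKM in DT_5d and 54.8 to 67.0 in DT_10d. Syt1, the synaptotagmin that senses calcium at the release site of synaptic vesicles, was at 22.0, 24.1 and 27.9 in DT_5d and 36.7, 31.7 and 38.2 in DT_10d (log2 change 0.53, limma adjusted p = 0.0167). Its groups did not overlap, although the change stayed under the limit of a log2 change of 1. The glial glutamate transporter Eaat-2 was at 24.5, 28.6 and 21.6 and then at 27.7, 25.4 and 27.8, overlapping ranges.

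Markers of muscle, fat body and blood cells were also present and were mostly lower. Of 5 troponin C genes used as muscle markers, 3 were called lower, against 2.97% of all genes, and 1 lay above 0, and their sum went from 586 to 822 scaled FPKM in DT_5d to 335 to 353 in DT_10d. The 5 fat body markers, Vg and 4 hexamerins, all lay below 0, with 1 called lower, against 2.97% of all genes. Their sum went from 29.9 to 35.0 down to 5.30 to 7.90. The single blood cell marker, PPO, was called lower. The 4 markers of retina, the opsins, went the way of the neuron markers instead, all above 0 with a median of 0.59 and none called, and their sum went from 291 to 411 up to 522.5 to 625. None of these markers was listed at 0 throughout either group. The part of such tissue in the changes described next was not tested.

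Among the largest decreases in the brain libraries were those of royal jelly protein genes. Mrjp1 to Mrjp9 encode secreted proteins of the yellow family that nurse bees feed to larvae. Of the 9 genes, 7 were called lower, against 2.97% of all genes. Their median log2 change was -6.57, against -0.00458 over all genes, and it was also below 0 without scaling (-5.49) and with quantile normalization (-5.13). Their sum took 6.98% to 11.99% of the summed FPKM of the DT_5d libraries and 0.0834% to 0.385% of the DT_10d libraries.

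Mrjp1, the most abundant of them and the main protein of royal jelly, was at 44788, 30684 and 25410.0 scaled FPKM in DT_5d and at 115, 703 and 498 in DT_10d. All libraries at 5 d thus lay far above all libraries at 10 d (log2 change -6.57, SE 1.10, limma adjusted p = 0.0027). Mrjp2 had the largest fitted change of any gene. It was at 7121, 5147 and 3389 in DT_5d and at 4.64, 11.6 and 15.2 in DT_10d, a 498-fold ratio of the means (log2 change -9.04, SE 1.08, adjusted p = 0.000202). Mrjp3 went from 15695, 10073 and 10355 to 20.8, 87.1 and 148 (log2 change -7.51, adjusted p = 0.000507). The lowest library at 10 d was replicate 1 for each of Mrjp1, Mrjp2 and Mrjp3, and the spread within DT_10d was wide relative to its mean.

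The less abundant members followed with the same separation. Mrjp4 was at 1600.3, 1038 and 1057 and then at 1.05, 5.69 and 9.19 scaled FPKM (log2 change -8.25). Mrjp5 was at 391, 194 and 244 and then at 1.77, 2.20 and 4.39 (log2 change -6.63). Mrjp6 was at 290.4, 288 and 317 and then at 9.02, 9.98 and 22.7 (log2 change -4.54, SE 0.49, adjusted p = 0.000109). These 3 genes, like Mrjp1, Mrjp2 and Mrjp3, kept their calls in each of the 6 fits that left out 1 library. Mrjp7, at 291, 179 and 180.0 and then at 4.93, 4.07 and 4.67 (log2 change -5.51, adjusted p = 0.0132), lost its call without DT_5d replicate 1 (-5.28, adjusted p = 0.0623).

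Mrjp8 and Mrjp9, which are also known as components of bee venom, behaved otherwise. Mrjp8 was at 13.99, 8.34 and 11.4 and then at 5.84, 5.29 and 5.30, lower in every library at 10 d, with a log2 change of -0.996 that just missed the limit (adjusted p = 0.0416). Mrjp9 was at 46.1, 38.5 and 34.7 and then at 44.4, 44.5 and 43.2, so that the groups overlapped (log2 change 0.16, SE 0.27, adjusted p = 0.732).

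**Figure D2:**
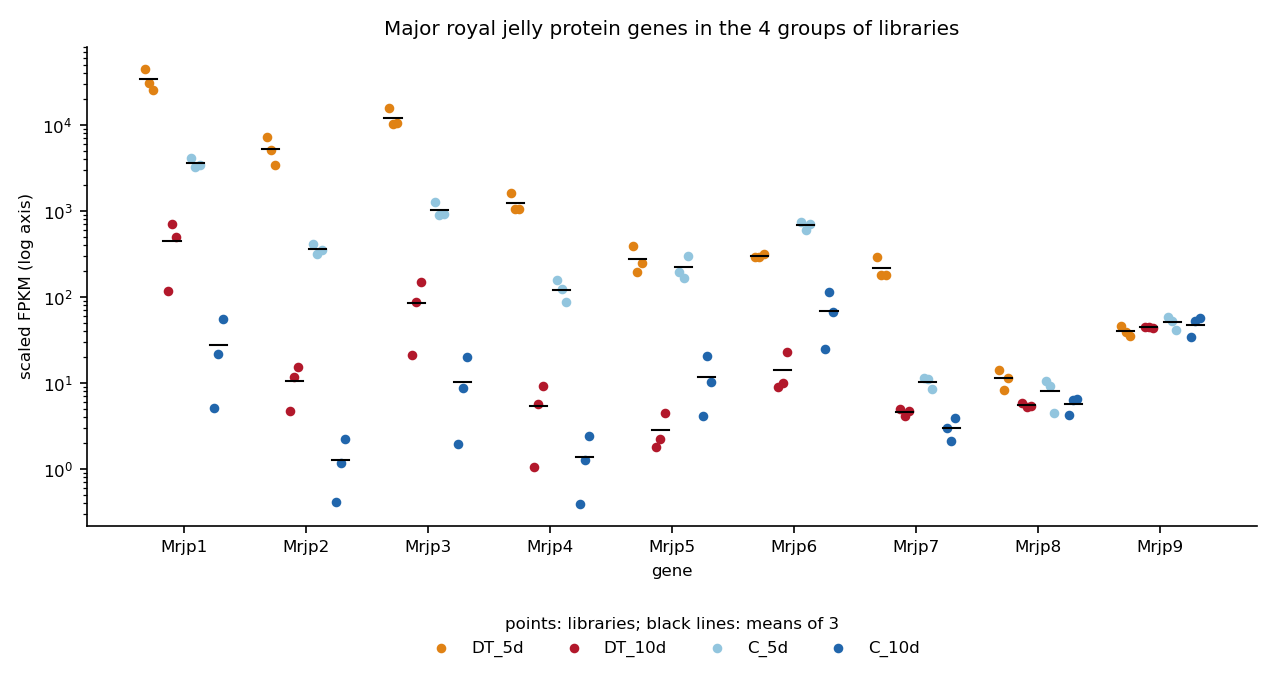
Scaled FPKM (log axis) of Mrjp1 to Mrjp9 in each library of DT_5d, DT_10d, C_5d and C_10d, with points for libraries and black lines for means of 3. For Mrjp1 to Mrjp7 the DT_10d libraries lie far under the DT_5d libraries, for Mrjp8 by a ratio of means of 2.06, and for Mrjp9 at the same level.

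The called members lie side by side. On chromosome 11 of the assembly Amel_HAv3.1, between 2268450 and 2311141, the 8 tested genes were all called lower, in the order Mrjp3, Mrjp1, Mrjp4, Mrjp6, Mrjp5, LOC102654393, Mrjp2 and Mrjp7. LOC102654393, which lies between Mrjp5 and Mrjp2 at a far lower level, was at 0.143, 0.302 and 0.382 in DT_5d and at 0, 0.0274 and 0 in DT_10d. Mrjp8 starts at 2312803 and Mrjp9 at 2321827, next to this stretch. The FPKM of such similar neighbours can depend on how shared reads were divided among them, which the sources used here do not describe.

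In the controls most royal jelly genes were lower at 10 d as well. The median log2 change of the 9 genes was -4.46 in C_10d against C_5d, and 6 were called lower, against 0.289% of all genes tested. Mrjp1 was at 4086, 3194 and 3405 scaled FPKM in C_5d and at 5.07, 21.4 and 54.9 in C_10d (log2 change -7.60). The study's own listing of abundant transcripts places the Mrjp1 levels of the 5 d libraries under the opposite feedings. The same listing places the DT_5d levels of Mrjp3 and LOC406093 under dinotefuran, as the deposited columns do. The study's quantitative PCR also gave less Mrjp1 under dinotefuran than in controls at 5 d, whereas the deposited columns give more. The values here follow the deposited columns and their labels, and which is right for Mrjp1 was not tested. Mrjp7 had the smallest control change of the 7 genes called under dinotefuran, from 11.5, 11.0 and 8.45 to 2.99, 2.08 and 3.91 (log2 change -1.78, adjusted p = 0.706). None of the 9 passed the test of the difference between the dinotefuran and the control change, the difference for Mrjp7 being -3.73 (SE 1.75, adjusted p = 0.319).

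A second list, headed hypopharyngeal gland enzymes and apisimin, held 5 genes, of which LOC406093, LOC406081 and LOC406114 carry no name in the files. All 5 lay below 0, 3 were called lower, against 2.97% of all genes, and the median log2 change was -2.81 (without scaling -1.73). With quantile normalization the median was -1.86 and 2 were called. Together they took 20.1% to 23.1% of the summed FPKM in DT_5d and 3.77% to 5.39% in DT_10d. LOC406114 was at 347, 349 and 472 scaled FPKM and then at 6.75, 6.61 and 6.35, far apart (log2 change -5.85, SE 0.89, adjusted p = 0.00124), and its change in the controls was -5.71. LOC406081 was at 13758, 14569.8 and 9183 and then at 1734, 1590.3 and 1942 (log2 change -2.81, adjusted p = 0.0179), without overlap. That call was lost in 5 of the 6 fits with 1 library less, all but the one without DT_5d replicate 3 (adjusted p 0.0188 to 0.0691), and with quantile normalization (-0.997, adjusted p = 0.0913).

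The alpha-glucosidases, which split sucrose into its sugars, were lower too, but unevenly. Hbg2 was at 1.24, 1.21 and 0.656 and then at 0.617, 0.281 and 0.337 (log2 change -1.16, adjusted p = 0.0282), and without scaling the change was -0.23 and not called. Its call was also lost without DT_5d replicate 1 (0.123), DT_5d replicate 2 (0.0988), DT_10d replicate 2 (0.103) or DT_10d replicate 3 (0.103). Hbg3 was at 4325, 3244 and 3406 and then at 762, 351 and 629.7. LOC406093, among the most abundant genes of all, was at 116756, 119099 and 83069 and then at 6894, 7324 and 9349.8. The libraries of both genes were fully apart between the ages, and neither was called in the fit over 18 libraries (Hbg3 -2.72, adjusted p = 0.137, and LOC406093 -3.75, SE 2.38, adjusted p = 0.306). Fitted on the 6 libraries alone, both passed (adjusted p = 0.00219 and 0.048). LOC406093 also passed over all 18 libraries with a prior without trend (adjusted p = 0.00367) and without scaling (-2.67, adjusted p = 0.00399).

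LOC408790, which has no name in the files, had the highest mean scaled FPKM of any gene in both DT_5d and DT_10d. It was at 96655, 155996 and 68900.5 in DT_5d and 40479.5, 33535 and 26051 in DT_10d. Its libraries did not overlap, and it was not called (log2 change -1.63, SE 3.02, adjusted p = 0.752). With quantile normalization the change was 0.31. That SE is not its own spread alone, as limma with trend also draws on genes of like abundance. The noncoding transcript TCONS_00024915, listed under it with nearly the same values, had an SE of 0.753 and was not called either.

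Among antimicrobial peptides, small secreted proteins that kill bacteria, the levels rose in part. LOC406142 (hymenoptaecin) and Apid1 (apidaecin) were called higher, against 1.05% of all genes, and LOC406144 (abaecin), Def1 and Def2 (defensins) were not. The median log2 change of the 5 was 1.89, and it was above 0 under each scaling (2.97 without scaling, 3.42 with quantile normalization). Their sum took 0.962% to 1.54% of summed FPKM at 5 d and 3.57% to 7.95% at 10 d.

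LOC406142 was at 83.7, 2184 and 227 scaled FPKM in DT_5d and at 9605, 3054 and 3731 in DT_10d. The groups did not overlap, but DT_5d replicate 2 stood far above its mates and close to the lowest library at 10 d (log2 change 3.79, SE 0.94, adjusted p = 0.0204). The call was lost without DT_5d replicate 1 (2.76, adjusted p = 0.113), DT_10d replicate 1 (3.29, 0.0806) or DT_10d replicate 3 (3.97, 0.0577). Apid1 had the same layout, at 6.35, 156 and 15.7 and then at 282, 157 and 235, so that DT_5d replicate 2 all but reached DT_10d replicate 2 (log2 change 3.12, SE 0.91, adjusted p = 0.0373). Its call was kept only without DT_5d replicate 2 (adjusted p = 0.00416) and was lost in the other 5 such fits (2.14 to 3.36, adjusted p up to 0.183) and in the fit on the 6 libraries alone (adjusted p = 0.0565).

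LOC406144 was at 817, 2855 and 806 and then at 6979.5, 3435 and 4014, with replicate 2 again the highest at 5 d (log2 change 1.89, SE 0.61, adjusted p = 0.0548). It passed with a prior without trend (adjusted p = 0.0272) and without DT_5d replicate 2 (0.0375). Def1, in contrast, was at 5107, 5299 and 3325 and then at 2928, 1459.8 and 1704, lower in all libraries at 10 d but not called (log2 change -1.21, adjusted p = 0.232). In the controls LOC406142, Apid1 and LOC406144 had log2 changes of 2.66, 2.62 and 1.77, none called, and none of the 5 peptides passed the test of the difference.

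The 4 genes of immune recognition and signalling went both ways, with a median log2 change of -0.80 that turned to 0.27 without scaling. Of these, 1 was called higher and 2 lower, against 1.05% and 2.97% of all genes. Pgrp-s2, a peptidoglycan recognition protein, was at 12.1, 13.8 and 7.63 and then at 58.4, 20.1 and 44.9 (log2 change 1.78, adjusted p = 0.0269). PGRP-S3, of the same family, was at 23.8, 17.5 and 16.6 and then at 7.96, 6.999 and 6.61 (log2 change -1.40, adjusted p = 0.0397). Neither pair of groups overlapped, and both calls were lost in 5 of the 6 fits with 1 library less (adjusted p up to 0.109 and 0.153), being kept only without DT_10d replicate 2 for Pgrp-s2 and without DT_5d replicate 3 for PGRP-S3. PPO, the prophenoloxidase of the melanin reaction that seals wounds, was at 75.6, 61.0 and 59.2 and then at 13.99, 15.6 and 17.1. It fell in every fit with 1 library less (log2 change -2.06, SE 0.24, adjusted p = 0.000193) and was also called lower in the controls (-1.34). Without scaling its change was -0.98, which missed the fold limit.

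**Figure D3:**
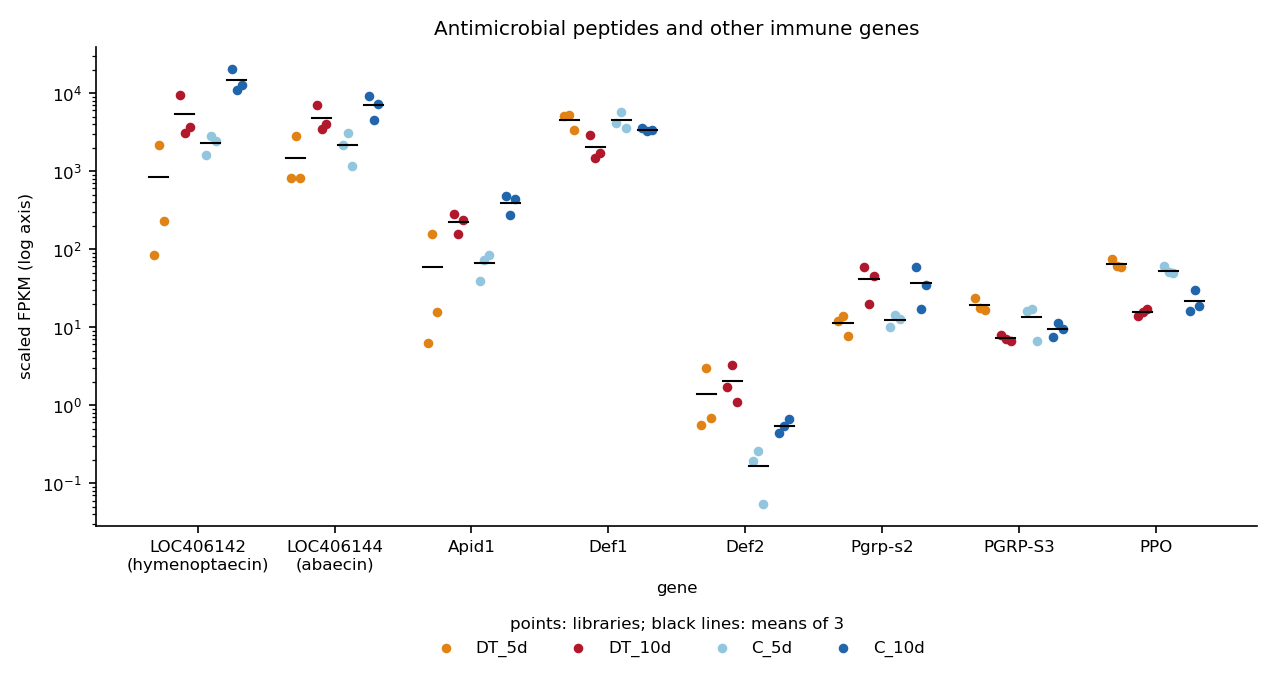
Scaled FPKM (log axis) of 5 antimicrobial peptide genes, 2 peptidoglycan recognition proteins and PPO in each library of DT_5d, DT_10d, C_5d and C_10d, with points for libraries and black lines for means of 3. For LOC406142, LOC406144 and Apid1 one DT_5d library, replicate 2, lies near the DT_10d libraries and the other 2 far under them, while PPO separates cleanly by age.

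Most subunits of the receptors that dinotefuran binds were not called. Of the 10 nicotinic acetylcholine receptor subunits tested, 1 was called higher, against 1.05% of all genes, and 9 lay above 0, with a median log2 change of 0.36 (0.09 in the controls). nAChRa6 was at 0.753, 1.52 and 1.15 scaled FPKM and then at 2.73, 1.96 and 2.39, higher in every library at 10 d (log2 change 1.02, SE 0.26, adjusted p = 0.0221). The call was lost without DT_5d replicate 1 (0.78, adjusted p = 0.114), DT_10d replicate 1 (0.91, 0.0839) or DT_10d replicate 3 (1.01, 0.0775), and with a pseudocount of 1 (0.66). The subunits nAChRa9, nAChRa2 and nAChRb1 had log2 changes of 0.76, 0.65 and 0.57, none called, and nAChRa3 was the only one below 0 (-0.28). Without scaling all 10 lay above 0, with a median of 1.36, and 9 were called higher, as were 4685 of all 9352 genes. All 10 were present at both ages, at a summed level of 15.9 to 20.2 scaled FPKM in DT_5d and 22.6 to 24.6 in DT_10d.

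Inhibitory channels opened by GABA, glutamate or histamine were represented by 4 genes. Grd, related to a GABA receptor subunit of Drosophila, was at 37.4, 49.4 and 47.2 and then at 14.7, 14.8 and 18.4, a clear separation (log2 change -1.47, SE 0.23, adjusted p = 0.00166). The call held in each fit with 1 library less and was lost without scaling (-0.40, adjusted p = 0.351). GluCl, a glutamate-gated chloride channel, was at 3.47, 4.49 and 4.27 and then at 6.86, 5.20 and 6.98 (log2 change 0.62, adjusted p = 0.0257), without overlap but under the fold limit. LCCH3 and Hiscl1 had log2 changes of 0.33 and 0.11.

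Other neural lists held no call on the scaled values. The 13 synapse and learning genes, a list chosen after the results were seen, had a median log2 change of 0.42 with 11 above 0, and Nmdar1, an NMDA-type glutamate receptor subunit, was highest in change. It was at 3.51, 3.99 and 4.76 and then at 8.57, 7.52 and 7.90, without overlap (log2 change 0.96, adjusted p = 0.0104), just under the fold limit. The 10 biogenic amine receptors and enzymes had a median of 0.38 and the 9 neuropeptide genes one of 0.05. The symbols sought for the neuropeptide list did not include SIFR, a neuropeptide receptor that was called lower and is given below. The 4 opsins, the light receptors of the eye, all lay above 0 with a median of 0.59, led by the ultraviolet opsin Uvop (27.1, 31.6 and 25.3, then 49.9, 45.5 and 53.6, log2 change 0.83, adjusted p = 0.00301). These opsins are the retina markers given above. With quantile normalization 2 of them were called higher, Uvop (1.08, adjusted p = 0.0019) and Lop1 (1.75, adjusted p = 0.025). Without scaling, where 4685 of all 9352 genes were called higher, so were all 4 opsins, 12 synapse and learning genes, 7 amine genes and 5 neuropeptide genes. The clock gene Per had a log2 change of 0.80 (adjusted p = 0.0499) and Cry2 one of -0.09, which turned to 0.97 without scaling.

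Some called genes with a symbol stood outside these lists. FAR1, a fatty acyl-CoA reductase, which makes fatty alcohols, was at 31.4, 41.4 and 36.6 and then at 85.4, 94.5 and 100.3, well apart (log2 change 1.36, SE 0.25, adjusted p = 0.00441; -0.19 in the controls). SIFR, the receptor of the neuropeptide SIFamide, was at 29.3, 36.1 and 21.1 and then at 5.68, 7.01 and 4.86, also without overlap (log2 change -2.26, SE 0.64, adjusted p = 0.0334). Wat and ACSF2, an acyl-CoA synthetase, fell by 2.27 and 1.58 on the log2 scale (adjusted p = 0.00463 and 0.0409). FAR1 and Wat kept their calls in each fit with 1 library less, and SIFR and ACSF2 lost theirs in all such fits but the one without DT_5d replicate 3 (adjusted p up to 0.111 and 0.151). These 4 genes were chosen after their values were seen.

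Odorant receptors, the membrane receptors of smell that belong to the antenna, were listed at low levels. Of 35 odorant and gustatory receptors 30 could be tested, 24 lay above 0 and the median log2 change was 0.44 (0.39 in the controls). Or41 was the only called member, higher at 10 d, against 1.05% of all genes. It was at 0.258, 0.144 and 0.277 and then at 0.516, 0.572 and 0.596 (log2 change 1.04, SE 0.23, adjusted p = 0.0109), apart in all libraries. The call was lost without DT_5d replicate 2 (0.85, adjusted p = 0.0532).

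Cuticle genes were among the decreases. Of 23 apidermin and cuticle protein genes tested, 7 were called lower, against 2.97% of all genes, and 20 lay below 0. The median log2 change was -1.15, against -0.15 in the controls, and it was -0.17 without scaling and -0.56 with quantile normalization. CPR19, a chitin-binding cuticle protein of the Rebers and Riddiford type, was at 23.3, 25.8 and 17.2 scaled FPKM and then at 1.23, 1.65 and 1.40. It was 15.5-fold lower by the ratio of means and kept its call in every fit with 1 library less (log2 change -3.85, SE 0.54, adjusted p = 0.000591). Apd-1, an apidermin of the bee exoskeleton, was at 739, 797 and 461 and then at 229, 81.5 and 85.4 (log2 change -2.47, adjusted p = 0.0147). All DT_5d libraries of both genes lay above all DT_10d libraries. The call of Apd-1 was lost without DT_5d replicate 1 (0.0663), DT_5d replicate 2 (0.057), DT_10d replicate 2 (0.0612) or DT_10d replicate 3 (0.0705).

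The other called cuticle genes were CPR27 (log2 change -2.28), CPR21 (-1.35), CPR6 (-1.28), CPR16 (-1.23) and CPR14 (-1.15). CPR14 was at 512, 589 and 366 and then at 232, 205 and 213, the most abundant called member of the type (adjusted p = 0.0224). CPR16 was below 1 scaled FPKM in all 6 libraries. Without scaling the changes of CPR16, CPR21, CPR6 and CPR14 were -0.67, -0.45, -0.23 and -0.07, none called. CPR6 lost its call without DT_5d replicate 1 (adjusted p = 0.0504), and CPR21 without DT_5d replicate 2 (0.0771), DT_10d replicate 1 (0.0831) or DT_10d replicate 3 (0.0645). CPR27, CPR16 and CPR14 kept theirs only without DT_5d replicate 3 (adjusted p up to 0.102 in the other fits). Apd-2 and Apd-3, far more abundant, were at 5589, 5277 and 3049.7 and at 5421, 4829 and 3139.7 in DT_5d. They were at 1909, 1410.4 and 1273 and at 2065, 1900.1 and 1569 in DT_10d, without overlap, yet neither was called (-1.57 and -1.25, adjusted p = 0.104 and 0.135). With a prior without trend both passed, and with quantile normalization the change of Apd-3 was 0.14.

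Related genes were examined in lists chosen after the results were seen. Y-y, the yellow gene of dark cuticle pigment, was at 9.72, 10.1 and 5.66 and then at 1.65, 1.71 and 1.86 (log2 change -2.18, adjusted p = 0.0221). Of 3 cuticular proteins analogous to peritrophins, Cpap3-b (-1.65) and Cpap3-c (-1.08) were called lower, against 2.97% of all genes. Of 4 silk fibroins, which form the silk of larvae, Fibroin3 (-1.07) and Fibroin4 (-1.44) were called lower. None of these 5 was called without scaling except Y-y (-1.13), and only Cpap3-c kept its call in most fits with 1 library less, losing it without DT_5d replicate 2 or DT_10d replicate 2, where its change was under the fold limit. The others kept theirs only without DT_5d replicate 3 (adjusted p up to 0.179). Acph-1, a venom acid phosphatase, had a log2 change of -1.35 (adjusted p = 0.0143, and -0.29 without scaling), lost in 4 of these fits, and TpnI and TpnT of muscle had -0.58 and -0.92, not called, a median of -0.75 that became 0.33 without scaling. Y-f and Y-h, also of the yellow family, had log2 changes of -0.03 and 0.02.

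One storage protein of the fat body was called lower. Hex70a, a hexamerin that stores amino acids in the blood, was at 24.4, 19.3 and 20.6 and then at 1.68, 2.33 and 1.31, far apart (log2 change -3.55, SE 0.55, adjusted p = 0.00144), and the call held in each fit with 1 library less. Vg, the yolk precursor vitellogenin, was at 6.50, 6.14 and 5.82 and then at 1.94, 2.22 and 2.01. Its groups were just as separate. It was not called in the fit over 18 libraries (log2 change -1.54, adjusted p = 0.104) and passed on the 6 libraries alone (adjusted p = 0.000343). All 5 genes of the list lay below 0 with a median of -0.95, and it was -0.36 without scaling.

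Soluble carriers of odours and other small molecules fell in some members only. Of 19 odorant binding proteins 4 were called lower, against 2.97% of all genes, and 14 lay below 0. The median log2 change was -0.25, but 0.76 without scaling and 0.10 with quantile normalization, so the list as a whole had no direction that held across scalings. Obp14 was at 26.4, 18.8 and 21.1 and then at 2.04, 2.92 and 1.06 (log2 change -3.49, adjusted p = 0.033), and the call was lost whichever library was left out (adjusted p 0.0532 to 0.121). Obp3 was at 40.2, 30.6 and 50.8 and then at 13.2, 9.50 and 6.59 (log2 change -2.07, SE 0.39, adjusted p = 0.00512), a call kept in each of these fits and lost without scaling (-0.99). All libraries of Obp14 and Obp3 were lower at 10 d. Obp18 and Obp10 had log2 changes of -1.40 and -1.05, which without scaling were -0.32 and 0.03, and both calls were kept only without DT_5d replicate 3 (adjusted p up to 0.109 otherwise). Obp15 had a log2 change of 0.95 that was not called.

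Of 5 chemosensory proteins, 2 were called lower, without overlap, against 2.97% of all genes. CSP4 was at 4.41, 4.32 and 3.73 and then at 0.743, 1.13 and 0.688 (log2 change -2.18, adjusted p = 0.0441). CSP2 was at 7.75, 6.99 and 5.34 and then at 2.01, 0.995 and 2.75 (-1.84, adjusted p = 0.0344). The call of CSP4 was lost in all 6 fits with 1 library less and that of CSP2 in all but the one without DT_5d replicate 3 (up to 0.135 and 0.129). The abundant CSP3 was at 3285, 3076 and 2651 and then at 3076, 2944 and 3012, a log2 change of 0.01 that became 1.09 without scaling and 1.45 with quantile normalization. The median of the list, -0.40, likewise became 0.68 and 0.19.

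Muscle, mitochondrial and ribosomal transcripts were lower by amounts near the scaling shift. TpnCI, a troponin C, the calcium switch of muscle contraction, was at 92.2, 91.2 and 67.4 and then at 40.4, 41.9 and 30.4 (log2 change -1.15, SE 0.20, adjusted p = 0.00355). TpnCIIb and TpnCIIa had log2 changes of -2.07 and -1.67. All libraries of these 3 genes were lower at 10 d. Without scaling their changes were -0.07, -0.99 and -0.59, none called. TpnCI kept its call in each fit with 1 library less, TpnCIIa only without DT_5d replicate 3 and TpnCIIb only without DT_5d replicate 3 or DT_10d replicate 2 (adjusted p up to 0.106 and 0.0997 otherwise).

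Of 13 protein genes of the mitochondrial genome 9 could be tested, 4 were called lower, against 2.97% of all genes, and 8 lay below 0, with a median of -1.48 (-0.41 without scaling). COX2, a subunit of cytochrome oxidase, was at 588, 940.4 and 633 and then at 126, 277 and 347 (log2 change -1.62, adjusted p = 0.03). ND5 of complex I was at 29.6, 23.3 and 10.2 and then at 6.80, 7.37 and 6.31 (-1.48, adjusted p = 0.0102). ND4 overlapped between the ages (18.6 the lowest at 5 d, 18.7 the highest at 10 d), and CYTB, at -1.02, had a change of 0.05 without scaling. Without scaling none of the 4 was called. ND5 lost its call without DT_5d replicate 1 (0.0632), COX2 in 4 of the 6 fits with 1 library less, all but those without DT_5d replicate 3 or DT_10d replicate 3, and ND4 and CYTB in all but the one without DT_5d replicate 3 (adjusted p up to 0.133, 0.176 and 0.185). ND4 also lost its call in the fit on the 6 libraries alone (adjusted p = 0.0521). ND1 was at 843, 18427 and 11041 and then at 8511, 10206 and 10267, so that DT_5d replicate 1 stood more than 10-fold under its mates. Its log2 change of 0.79 became -0.57 without that library, and without scaling it was called higher (1.87, adjusted p = 0.0233).

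Of the cytosolic ribosomal protein genes, RpL35 was at 115, 86.9 and 128 and then at 52.5, 50.4 and 47.9, without overlap, and was called lower (log2 change -1.11, adjusted p = 0.049). The median of the 6 genes of the list was -1.07 and became 0.01 without scaling. The call of RpL35 was lost without scaling (-0.03) and in each of the 6 fits with 1 library less (adjusted p up to 0.151).

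Several lists that neonicotinoid work often follows held no call. They were matched by symbol, which 382 of the 9352 tested genes carry, so family members without a symbol are missing from them. The 12 glutathione and antioxidant enzymes had a median of -0.35 with 11 below 0 (0.72 without scaling), and GstD1, a glutathione transferase, was at 133, 139 and 93.7 and then at 74.9, 65.4 and 69.3 (log2 change -0.78, adjusted p = 0.0417). The 4 cytochromes P450, enzymes of detoxification, had a median of -0.24 (0.81 without scaling) and the 4 heat shock proteins one of -0.08 (0.998 without scaling and 0.32 with quantile normalization). The 8 genes of juvenile hormone and ecdysone response had a median of 0.06 (1.08 without scaling), and Kr-h1, a juvenile hormone response factor, had a log2 change of 0.42 (adjusted p = 0.214). The DNA methyltransferase Dnmt3, from a list chosen after results were seen, was at 2.18, 3.08 and 2.57 and then at 1.47, 1.34 and 1.85 (-0.71, adjusted p = 0.0282), under the fold limit.

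**Figure D4:**
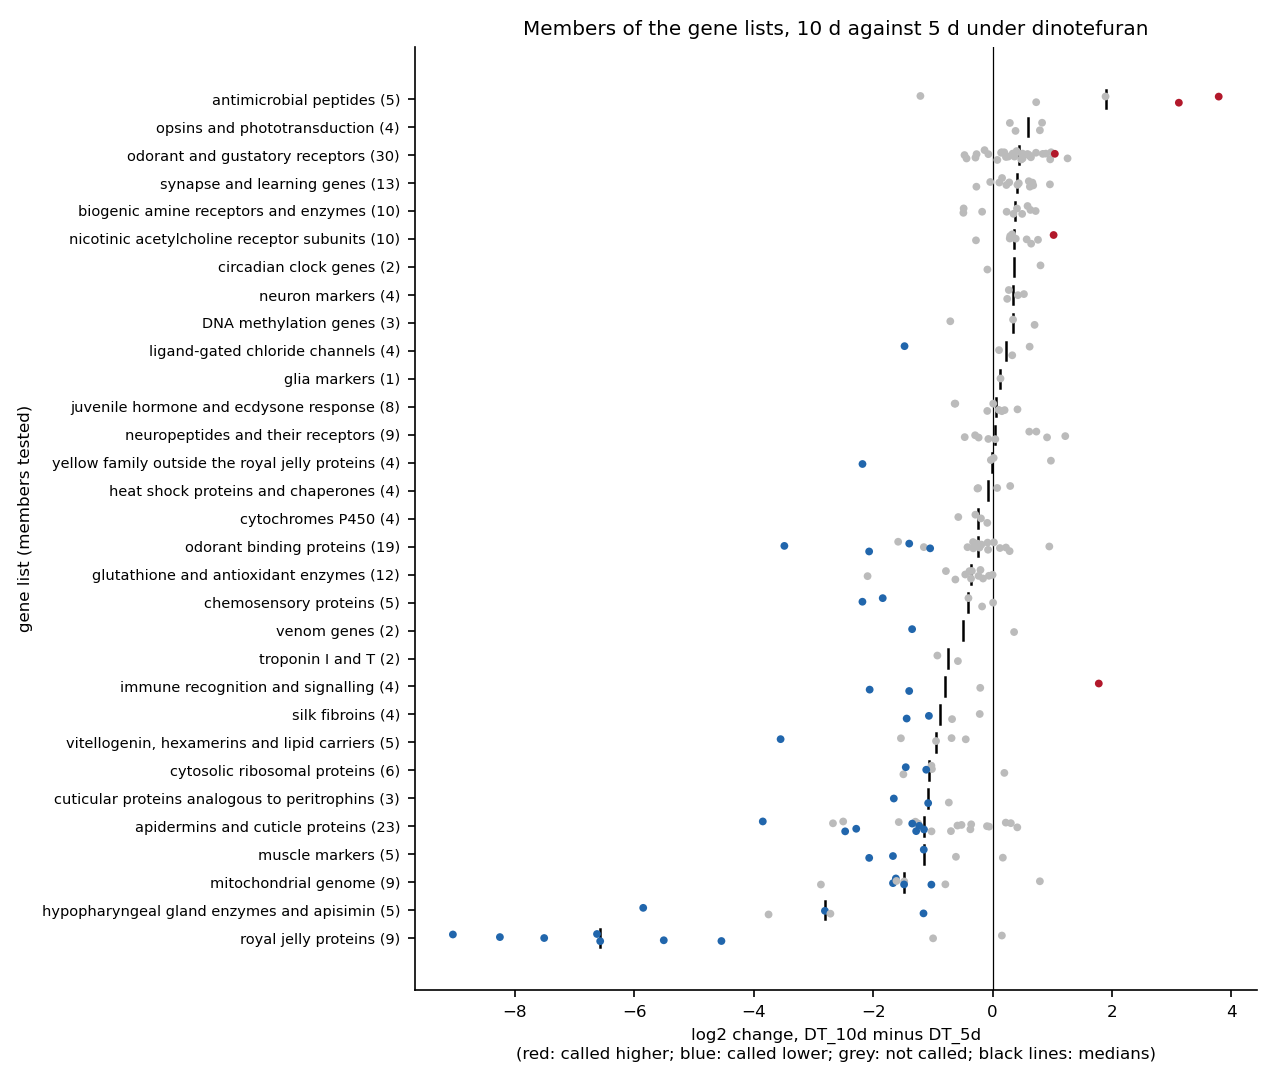
Log2 change of each tested member of the gene lists between DT_5d and DT_10d (horizontal axis), with 1 line per list, the number of members tested in brackets and a black line at the list median. Red members were called higher, blue lower and grey not called. The lists run from antimicrobial peptides at the top, with a median of 1.89, to royal jelly proteins at the bottom, with a median of -6.57.

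Most of the largest increases were in genes that the files do not name. Of the 98 increases 5 carry a symbol, and of the 9352 genes tested 382 do. LOC726150 was at 0.0987, 0.546 and 0.130 scaled FPKM in DT_5d and at 7.24, 3.46 and 6.73 in DT_10d, a 22.5-fold ratio of means and the largest fitted increase (log2 change 4.19, SE 0.68, adjusted p = 0.00202). In the controls it was at 1.55, 1.01 and 1.95 and then at 1.88, 0.596 and 1.81, so the DT_5d libraries were the low ones and the DT_10d libraries the high ones. LOC413560 was at 0.250, 0.338 and 0.317 and then at 2.01, 3.49 and 3.40 (log2 change 2.90, SE 0.34, adjusted p = 0.000193). Both calls held in each fit with 1 library less.

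The remaining large increases among genes with a group mean of at least 1 had log2 changes of 1.52 to 2.33. LOC107965532 was listed at 0 in 1 DT_5d library, at 0.398, 0 and 0.222 and then at 1.28, 1.31 and 0.958 (2.33, adjusted p = 0.018). LOC724552, the most abundant of these, was at 17.98, 19.9 and 13.3 and then at 50.4, 46.8 and 78.5 (adjusted p = 0.0186). LOC100576886 was at 3.90, 2.14 and 3.47 and then at 9.79, 8.76 and 8.76 (1.53, adjusted p = 0.00759). LOC413963 was at 1.58, 2.02 and 1.70 and then at 4.29, 5.93 and 5.67 (1.52, adjusted p = 0.0058). All 4 were fully apart between the ages, and the last 2 kept their calls whichever library was left out. LOC724552 lost its own without DT_5d replicate 1 (0.0633) or DT_10d replicate 3 (0.0856), and LOC107965532 without DT_5d replicate 2 (0.0747), DT_10d replicate 1 (0.061) or DT_10d replicate 2 (0.0576). LOC725158, LOC551556 and LOC100578323 (1.90, 1.73 and 1.60) were below 3 scaled FPKM in all 6 libraries and kept their calls in 1, 2 and 1 of the 6 fits (adjusted p up to 0.156).

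Unnamed genes were also among the largest decreases. LOC113218518 was at 3371, 2416 and 2020.2 and then at 22.1, 44.1 and 78.3 (log2 change -5.90, SE 0.84, adjusted p = 0.000683). LOC725114, on chromosome 15 like it, was at 1394, 1256 and 1171 and then at 36.5, 66.7 and 66.4. It had the smallest p of any gene named here (log2 change -4.54, SE 0.30, adjusted p = 7.84e-07), and its change in the controls was -4.40. LOC552685 was at 244, 246 and 146 and then at 8.62, 9.87 and 9.60 (-4.45, adjusted p = 0.000501), against -1.02 in the controls, where its test of the difference was not passed (adjusted p = 0.153). LOC107965367 was at 5.30, 6.82 and 4.97 and then at 0.174, 0.280 and 0.153 (-4.27, adjusted p = 0.0167). None of the 4 overlapped between ages, and the first 3 kept their calls in each fit with 1 library less, whereas LOC107965367 lost its own in 4 of them (adjusted p up to 0.0642).

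Genes called lower often lay close together on the chromosomes. Of the 278 decreases 93, or 33.5%, had another gene called lower within 20 kb, and 12.8% of all tested genes with a position had such a neighbour. For increases the shares were 12 of 98, or 12.2%, and 5.37%. Besides the royal jelly stretch, 4 of 4 tested genes were called lower between 5288728 and 5382720 on chromosome 15 (LOC408536, LOC100576418, LOC102655762 and Wat) and 3 of 3 between 3902030 and 3916277 on chromosome 12 (Fibroin3, Fibroin4 and LOC411622). The longest stretch of increases held 4 of 5 tested genes between 1646256 and 1677744 on chromosome 8 (LOC726908, LOC107964901, LOC412650 and LOC100576801). These stretches were picked for their calls, and neighbouring genes can share reads.

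The controls allow the same interval to be read without dinotefuran. In C_10d against C_5d, 5 genes were called higher (0.0535%) and 27 lower (0.289%). Of the 278 decreases under dinotefuran, 246 had a fitted change of the same sign in the controls, where the median over all 278 was -0.47, and 22 were also called lower there. Of the 98 increases, 73 had the same sign, the median over all 98 was 0.20 and none was called in the controls. Over all genes tested the median change in the controls was -0.00114. How many of all genes had the same sign at both feedings was not counted, so the counts of same signs have no background here. A call at one feeding and not at the other does not show a difference, so the difference of the changes was tested for every gene, and the 2 changes share no library.

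The change differed between dinotefuran and control bees for 16 of 9352 genes (0.171%), 9 with a higher and 7 with a lower change under dinotefuran. None of the 16 carries a name in the files, and of all 9352 genes tested only 382 carry a symbol. The dinotefuran change was itself called for 12 of them and the control change for 4, and the fitted changes had opposite signs for 9. LOC725204, on chromosome 16, had the smallest p. It was at 6.199, 7.36 and 8.06 scaled FPKM in DT_5d and 3.58, 3.40 and 3.04 in DT_10d, and at 2.96, 2.57 and 1.84 in C_5d and 4.46, 6.49 and 6.80 in C_10d. It thus fell in one feeding and rose in the other, without overlap in either (log2 changes -1.08 and 1.24, difference -2.32, SE 0.27, adjusted p = 0.0024). The difference kept its call when any of the 12 libraries was left out and lost it without scaling (-1.27, adjusted p = 0.0662).

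LOC725732 was at 12.6, 14.2 and 13.5 and then at 31.2, 35.7 and 36.1 under dinotefuran. The controls stayed at 14.1, 12.1 and 18.9 and then 9.47, 13.8 and 13.2 (log2 changes 1.35 and -0.29, difference 1.64, adjusted p = 0.0128), so only the DT_10d libraries stood apart. LOC413560, described above, showed the same layout in the controls, at 0.238, 0.221 and 0.235 and then 0.206, 0.238 and 0.149 (difference 3.06, adjusted p = 0.0165). LOC724285 was at 10.7, 9.95 and 10.5 and then at 3.68, 3.13 and 3.82, and in controls at 5.61, 5.55 and 5.48 and then at 3.70, 4.44 and 4.05. It was lower at 10 d in both feedings, called only under dinotefuran, where its level at 5 d was higher (log2 changes -1.53 and -0.44, difference -1.09, adjusted p = 0.0153). That difference was -0.03 without scaling.

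Among the other differences, LOC413627 was at 1108, 876 and 821 and then at 56.1, 77.8 and 71.5, a 13.7-fold decrease of the mean. Its control libraries went from 374, 388 and 369.8 to 118, 199 and 161 (log2 changes -3.77 and -1.27, difference -2.50, adjusted p = 0.0302). LOC412162 was at 1.30, 2.05 and 2.45 and then at 4.78, 4.53 and 4.28, while controls went from 4.61, 4.38 and 4.24 to 2.53, 1.81 and 1.11 (difference 2.53, adjusted p = 0.0302). Its groups were apart in opposite directions, though the control change alone was not called (adjusted p = 0.0906). LOC725732, LOC413560 and LOC724285 each lost the call of the difference without DT_5d replicate 1 (adjusted p 0.0541 to 0.069), and further libraries are given at the end. The count of called differences ranged from 1, without DT_5d replicate 1, to 24, without C_10d replicate 3.

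**Figure D5:**
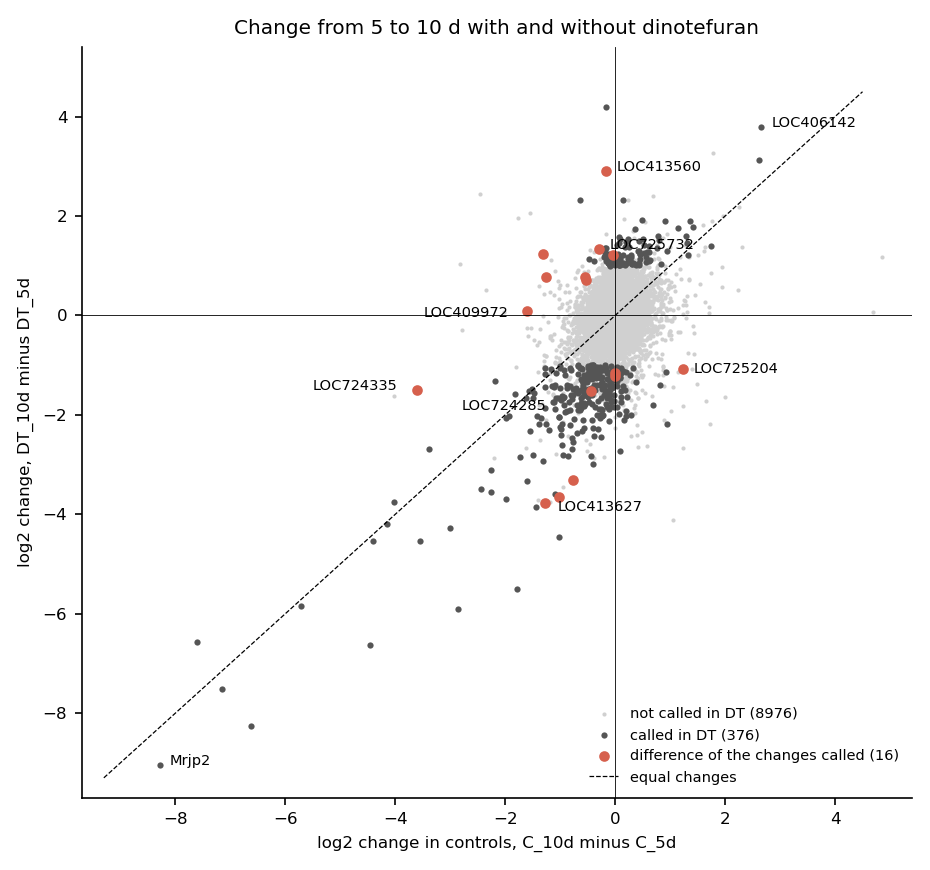
Log2 change of each tested gene from 5 d to 10 d in control bees (horizontal axis) and in dinotefuran-fed bees (vertical axis), with a dashed line where both changes are equal. Coloured points are the 16 genes whose difference was called, grey points all others. Mrjp1 and Mrjp2 lie far down and left near the dashed line, and LOC725204 lies to the right of and under the centre.

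Long noncoding RNAs (lncRNAs), transcripts without an apparent reading frame, were called in a smaller share than genes. Of 4378 lncRNA transcripts tested, 32 were called higher (0.731%) and 44 lower (1.01%), at 65 loci, with a median log2 change of 0.16. The higher group mean was below 1 scaled FPKM for 49 of the 76. Of 41 called transcripts listed under a tested gene, 6 had that gene called in the same direction and 35 had it not called. Over all genes tested, 1.05% were called higher and 2.97% lower. With a fit on the compared libraries only, 67 were higher and 56 lower. With the unscaled values the counts were 563 and 17.

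Some of the largest lncRNA changes were appearances and disappearances. TCONS_00030751, of the unnamed locus XLOC_009318, was listed at 0 in all 3 DT_5d libraries and at 35.9, 33.4 and 103 scaled FPKM in DT_10d. It was listed at 0 in all control libraries of both ages. It passed the filter only through the 3 DT_10d libraries, so its limma adjusted p of 4.95e-10 is no separate support. Only 3 of the 6 fits with 1 library less could test it. No fold is given against a group at 0. Another transcript of that locus, TCONS_00030747, was at 441, 698 and 11.4 and then at 585, 547 and 501 and was not called, and the files do not show how reads were divided between the transcripts. XR_001704091.2, listed under LOC107964909, was at 7.86, 7.57 and 8.81 and then at 0.103, 0.383 and 0.0943 (log2 change -4.93, SE 0.46, adjusted p = 3.68e-05), fully apart. Another transcript of that gene, XR_001704089.2, went from 1.21, 1.68 and 1.71 to below 0.1 in all 3 libraries (-3.89, adjusted p = 0.00862), and the other one, XR_001704088.2, had a log2 change of -0.97 and was not called (adjusted p = 0.336).

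Transcripts under LOC409787 also fell. TCONS_00034585 was at 48.6, 8.09 and 7.54 and then at 0.303, 0 and 0 (log2 change -6.51, adjusted p = 0.0314), with DT_5d replicate 1 the highest. The call was lost without that library (0.112), DT_5d replicate 2 (0.062), DT_10d replicate 2 (0.0972) or DT_10d replicate 3 (0.115). TCONS_00034583 was at 0.735, 8.18 and 0.877 and then listed at 0 in each library of DT_10d (adjusted p = 0.00193). It passed the filter only through the DT_5d libraries, so this p is no separate support either. The gene LOC409787 itself was at 106, 110.4 and 71.8 and then at 54.4, 47.1 and 45.4 (log2 change -0.95, adjusted p = 0.00554), under the fold limit.

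Increases among lncRNAs with a group mean of at least 1 were smaller. TCONS_00009497, listed under LOC551762, was at 0.126, 0.0512 and 0.490 and then at 1.17, 1.02 and 1.39 (log2 change 2.24, adjusted p = 0.0154), while LOC551762 had a change of 0.13. TCONS_00066704, under LOC551146, had a change of 1.49 (adjusted p = 0.0324) and TCONS_00055050, under LOC725974, one of 1.26 (adjusted p = 0.0498), and their genes were not called. In fits with 1 library less these 3 calls were kept in 2, 1 and 0 of 6. Of the lncRNAs that the study followed by quantitative PCR, none was called in the fit over 17 libraries. TCONS_00086519 was at 4033, 446 and 0 and then at 202, 0 and 0, with replicate 1 the highest at both ages (adjusted p = 0.39). TCONS_00023619, under Apd-1, was at 259, 76.1 and 247 and then at 8.87, 12.002 and 5.93, without overlap (log2 change -4.29, adjusted p = 0.158). It passed with only the libraries compared (adjusted p = 0.0122) and with a pseudocount of 1 (-4.15, adjusted p = 0.0469). TCONS_00024915, under LOC408790, had a change of -1.63 (adjusted p = 0.29), the same as that gene.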

How the data were processed

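Brains of Apis mellifera workers were measured by RNA-seq in 18 libraries, of which the 6 of DT_5d and DT_10d were compared and the 6 of C_5d and C_10d used beside them. Groups were taken from the sample titles. The authors prepared libraries with the NEBNext Ultra kit and aligned reads to Amel_HAv3.1 with Hisat2. They assembled transcripts with StringTie and deposited FPKM values computed with Cuffdiff of Cufflinks 2.1.1. CASAVA and StringTie are named in the submitters' processing notes, with versions not given in the sources used here. Each file lists 24419 mRNA transcripts of 9939 genes, with 1 value per gene and library, and 6760 lncRNA transcripts. Gene identifiers of 9935 genes matched the RefSeq table of Amel_HAv3.1, from which positions come, and 398 genes carry a symbol. The lists were matched by symbol, and 5 lists found no member (nuclear respiratory chain, proteasome subunits, glycolysis, fatty acid synthesis, and immediate early genes).

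Read counts could not be recovered: of genes below 0.2 FPKM, at most 1.78% shared one ratio between any pair of the 6 libraries. The study states read totals per library, which were not used here, and the reads behind each deposited FPKM value are therefore not known. FPKM was divided by the median ratio of each library, and limma 3.58.1 (R 4.3.3, trend on) was fitted to log2(scaled FPKM + 0.1) over all 18 libraries with 1 mean per group, for genes that reached an FPKM of 0.1 in 3 or more libraries. P-values were adjusted by Benjamini-Hochberg over all features tested. An exact test of 3 against 3 libraries cannot go below 0.1. The lncRNAs were scaled by the factors of the genes. The lncRNA columns of DT_1d replicate 1 and DT_10d replicate 1 hold identical values, while their gene columns differ. They correlate at r = 0.878 and 0.877 with the other DT_10d libraries and at 0.744 and 0.756 with those of DT_1d, so the column was kept for DT_10d and left out of DT_1d, and 17 libraries entered the lncRNA fit. The procedure was tested on simulated data. Python 3.11.15 was used for the summaries.

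The comparison, the gene lists and the rule for named genes were chosen with earlier results of these data known, and 7 further lists were added after the results were seen. Named were the 12 largest increases and decreases among called genes without overlap and with a group mean of at least 1. Also named were called or most abundant list members, the 5 smallest p-values of the difference from controls, the transcripts the study measured by PCR and the 4 largest lncRNA changes in each direction. Alternatives covered scaling, pseudocount, filter, samples in the fit, prior, replicate number, threshold and each library left out. The values of 1 called list member are not reported here.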

Additional observations from a re-analysis of the deposited data

Results flagged for a closer look

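The change from 5 d to 10 d differed between dinotefuran-fed and control bees, by limma's test of the difference itself, for 16 of 9352 genes (0.171%), and the 5 with the smallest p are given here. LOC725204 fell under dinotefuran by 1.08 on the log2 scale and had a change of 1.24 in controls, a difference of -2.32 (adjusted p = 0.0024). LOC725732 had changes of 1.35 and -0.29, a difference of 1.64 (adjusted p = 0.0128), which missed the threshold without DT_5d replicate 1 (0.0541). LOC724285 had changes of -1.53 and -0.44, a difference of -1.09 (adjusted p = 0.0153), which missed it without DT_5d replicate 1 (0.0559) or DT_10d replicate 2 (0.0511).

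LOC409972 is the one of these genes whose change was called in the controls and not under dinotefuran. It was at 4.74, 4.95 and 5.11 scaled FPKM in DT_5d and 4.67, 5.31 and 5.93 in DT_10d, and at 11.2, 9.25 and 14.2 in C_5d and 3.33, 4.27 and 3.56 in C_10d. The changes were 0.10 and -1.60, a difference of 1.69 (adjusted p = 0.0154), which missed the threshold without DT_5d replicate 1 (0.0559), DT_10d replicate 2 (0.0511) or DT_10d replicate 3 (0.0737). LOC413560 had changes of 2.90 and -0.17, a difference of 3.06 (adjusted p = 0.0165), which missed it in 4 of the 12 fits with 1 library less (C_5d replicate 1, DT_5d replicate 1, DT_10d replicates 2 and 3, adjusted p up to 0.0737).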

How the results depend on the processing

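Scaling decided how many genes were called in each direction. Unscaled FPKM gave 4685 genes higher and 70 lower, 10 differences from controls, and 563 lncRNAs higher and 17 lower, and the median gene moved by 1.01. Scaling by summed FPKM without the Mrjp genes and LOC408790, chosen after seeing the data, gave 4484 and 74 genes (median gene 0.99), 1466 differences and 856 and 27 lncRNAs. Quantile normalization gave 25 differences and 15 lncRNAs higher. A pseudocount of 1 gave 26 genes higher and 6 and 24 lncRNAs, one of 0.01 gave 17 and 29 lncRNAs, and a mean FPKM of at least 1 gave 59 genes higher and 11 and 24 lncRNAs. Only the libraries compared gave 422 genes lower, 38 differences and 67 lncRNAs higher. No fold limit gave 535 and 595 genes, and unadjusted p gave 338 differences and 273 and 184 lncRNAs. Without 1 replicate the counts ranged from 38 to 175 genes higher, 130 to 307 lower, 1 to 24 differences, 8 to 25 lncRNAs higher and 20 to 28 lower. The median ratio from the 6 libraries was not run for lncRNAs and differences.

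The replicate number as a block gave 100 and 272 genes, 16 differences and 17 and 30 lncRNAs. Deviations of same-numbered samples correlated at 0.106, -0.0559 and 0.159. Replicates 1 and replicates 3 of DT_5d and DT_10d correlated best with each other, and replicates 2 did not. Deviations from a mean of 3 libraries cancel within each group, so this cannot show whether same-numbered samples shared a cage or colony.

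The following log2 changes turned sign. Without scaling, with quantile normalization and by summed FPKM they were 0.47, 0.30 and 0.44 for TpnCIIIa, 0.88, 0.24 and 0.85 for CYP6AQ1, 0.84, 0.12 and 0.81 for Hsp90, 0.62, 0.45 and 0.59 for Sod1, 1.00, 0.87 and 0.97 for Obp16, 0.46, 0.26 and 0.43 for Tpx-4 and 0.91, 1.37 and 0.87 for CSP1. Without scaling and by summed FPKM they were 0.59 and 0.56 for TyHyd, 0.84 and 0.81 for Crzr, 0.51 and 0.47 for Cyp6as5, 0.033 and 0.0018 for Obp10, 0.97 and 0.94 for Cry2, 0.56 and 0.53 for 5-HT1, 0.0646 and 0.0333 for Rps14, and 0.0545 and 0.0233 for CYTB. Quantile normalization gave 0.14 for Apd-3 and 0.31 for LOC408790. Without 1 replicate the changes ranged from -1.33 to 2.46 for LOC113219351, -0.57 to 1.66 for ND1, -0.45 to 0.0181 for Hsp90, -0.34 to 0.014 for CSP1, -0.27 to 0.12 for Obp16, -0.25 to 0.0195 for Cry2, -0.0787 to 0.076 for CSP3 and -0.0138 to 0.13 for Hsc70-4. Of these 17 scaling-dependent genes only Obp10 and CYTB were called. Over all named genes, differences and lncRNAs and all alternatives 1758 values stayed on their side of the threshold, 251 called values missed it, 84 passed it anew and 49 turned sign. The cause was not tested.

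Limits: 3 pooled libraries per group, no reads per gene and factors of DT_5d and DT_10d that do not overlap.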
